A study of Mus musculus with 10 samples.

Results

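The DIP2 genes of the mouse, Dip2a, Dip2b and Dip2c, encode the vertebrate relatives of the fly protein Disco-interacting protein 2. They are 3 of the 22891 genes in the deposited table, found there by the Ensembl identifiers of their symbols, and all 3 passed the filter on low values, as did 15629 genes in all. The family was selected on the level of Dip2c in the comparison of Uba3 cKO with control ovaries, where Dip2c had the smallest p of all tested genes in limma, so the group differences of its members are given below as a description, with standard errors and no test. The samples were whole ovaries of 3-week-old mice of the C57/Bl6/N;129SvEv7 strain, described as non-stimulated. There were 5 libraries of the genotype Uba3 cKO and 5 of the genotype Control. Uba3 encodes the catalytic subunit of the NEDD8-activating enzyme, which starts the attachment of NEDD8 to cullins and other proteins. The labels name neither the Cre line nor the cells in which Uba3 was deleted, nor what the control animals carry, and nothing says that the libraries of a group came from separate animals.

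DIP2 proteins join an N-terminal domain like the one that binds the DNA methyltransferase partner DMAP1 to a pair of adenylate-forming domains of the kind found in fatty acid ligases. In yeast and in Drosophila, DIP2 is known to lower certain diacylglycerols, lipids that carry signals in membranes, by turning them into storage fat. Mouse DIP2A has been described as a receptor for the secreted glycoprotein FSTL1, human DIP2B is known for a CGG repeat next to its start that can expand at a fragile site, and DIP2C is best known from the nervous system.

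The coding sequences show how far the members have drifted apart and where short reads of one could be counted for another. In GENCODE M21, which is built on GRCm38, the longest coding transcripts were Dip2a-205 on chromosome 10 (minus strand), with 37 exons and 4572 coding bases, Dip2b-202 on chromosome 15 (plus strand), with 38 exons and 4725 coding bases, and Dip2c-203 on chromosome 13 (plus strand), with 37 exons and 4671 coding bases. Aligned coding bases were identical at 70.8% between Dip2a and Dip2c, 70.0% between Dip2a and Dip2b and 68.9% between Dip2b and Dip2c, and at 59.0% of 4539 positions in all 3 genes. The best-kept window of 45 bases lies close to the start of translation and spans the junction of exons 1 and 2 in each gene, from coding base 60 in Dip2a, 69 in Dip2b and 54 in Dip2c, counted from the first base of the start codon. It is shown because it is where the members are most alike, and capitals mark the 7 positions that are not the same in all 3 genes.
Dip2a: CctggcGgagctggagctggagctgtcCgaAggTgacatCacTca
Dip2b: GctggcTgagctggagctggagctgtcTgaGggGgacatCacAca
Dip2c: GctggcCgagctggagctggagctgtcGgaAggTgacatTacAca

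The longest runs that members share exactly are shown next, because reads within such a run fit both members alike. Dip2a and Dip2c share 32 bases across the junction of exons 20 and 21 of each, coding bases 2344 to 2387 of Dip2a and 2443 to 2486 of Dip2c with the 6 flanking bases on each side. Dip2b and Dip2c share 29 bases in the last exon of each, at chr15:100215260-100215300 and chr13:9665860-9665900 on the plus strand of GRCm38 with the flanks. Capitals mark the shared run.
Dip2a: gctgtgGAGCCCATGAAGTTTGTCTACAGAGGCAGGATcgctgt
Dip2c: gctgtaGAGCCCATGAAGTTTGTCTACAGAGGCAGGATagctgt
Dip2b: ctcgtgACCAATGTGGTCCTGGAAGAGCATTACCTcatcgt
Dip2c: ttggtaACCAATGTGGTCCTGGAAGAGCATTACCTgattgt

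No run of 50 bases was shared between the longest coding transcripts of any pair, and Dip2a and Dip2b shared at most 20 bases. The read length is not given in the sources used here. The 3 genes lie on separate chromosomes, and each was read as its own value. Whether reads of one were counted for another was not tested.

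Levels are on the authors' log2 scale, on which 1 unit is a doubling, and the depth of the libraries is unknown. Library medians lay between 6.29 and 6.44. Uba3 stood at 10.12 ± 0.069 in Uba3 cKO libraries and 10.12 ± 0.18 in control libraries (SD, n = 5 each; exact two-sided permutation test, p = 1), a gene-level value that does not resolve deleted exons or single cell types, so the groups are named as labelled. Follicle transcripts were abundant in both groups: the granulosa gene Inha averaged 16.67 and 16.61 and the oocyte gene Padi6 12.73 and 12.76, in Uba3 cKO and control libraries in that order. Over 9 cell type lists, 0 tested genes passed limma at an adjusted p of 0.05 and 0 were at an unadjusted p under 0.05, against 0% and 1.79% of all tested genes (0.973% higher and 0.819% lower in Uba3 cKO libraries). A pair of libraries stood apart in how levels depended on transcript length. For each library, deviations from the mean of all libraries were regressed on log2 length in 9182 genes whose mean was 8 or more. This length slope was lowest in Uba3 cKO replicate 1 (-0.060 log2 units per doubling of length) and control replicate 3 (-0.15), and lay between -0.0067 and 0.058 in the rest. The DIP2 genes have long transcripts, longer than those of 84.2% (Dip2a), 91.5% (Dip2b) and 84.3% (Dip2c) of tested genes by the union of their exons. The members' differences are therefore also given without that pair of libraries.

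Dip2c (ENSMUSG00000048264) was lower in every Uba3 cKO library than in every control library. It stood at 9.20, 9.66, 9.38, 9.48 and 9.53 in Uba3 cKO replicates 1 to 5, against 10.30, 10.03, 9.83, 9.94 and 10.26 in control replicates 1 to 5. The groups did not overlap: the lowest control, replicate 3, lay 0.17 above the highest Uba3 cKO library, replicate 2. The means were 9.45 ± 0.17 in Uba3 cKO libraries and 10.07 ± 0.20 in control libraries (SD, n = 5 each), a log2 difference of -0.62 (limma standard error 0.11), which is a fold of 0.648. Among 9207 genes with a mean of at least 8 this was the lowest difference, and among all 15629 tested genes it was the fifth lowest. Groups that do not overlap, with Uba3 cKO lower, were found for 19 tested genes, 0.122% of all, and no gene passed limma at an adjusted p of 0.05 (0% of all). The contrast that put Dip2c at this end is the one on which the family was selected, and nothing is read from these ranks. Without Uba3 cKO replicate 1 and control replicate 3 the difference was -0.62 (standard error 0.090), an alternative added after seeing the data. In whole ovaries, fewer cells of a type that holds Dip2c and less Dip2c RNA per cell cannot be told apart.

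Dip2a (ENSMUSG00000020231), the member described as an FSTL1 receptor, had the higher mean in Uba3 cKO libraries, within a wide spread. Its values were 9.74, 10.19, 9.94, 10.16 and 10.15 in Uba3 cKO replicates 1 to 5, against 10.14, 9.87, 9.32, 10.03 and 9.92 in control replicates 1 to 5. The groups overlapped, with control replicate 3 lowest of all libraries and Uba3 cKO replicate 1 next. The means were 10.04 ± 0.19 in Uba3 cKO libraries and 9.85 ± 0.32 in control libraries, a log2 difference of 0.18 (standard error 0.14). Without control replicate 3 it was 0.047 (standard error 0.095), and without that library and Uba3 cKO replicate 1 it was 0.12 (standard error 0.076).

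Dip2b (ENSMUSG00000023026), whose human counterpart carries the expanding CGG repeat, was the steadiest member. It had 9.26, 9.56, 9.41, 9.48 and 9.57 in Uba3 cKO replicates 1 to 5, against 9.60, 9.52, 9.58, 9.44 and 9.63 in control replicates 1 to 5. The groups overlapped, and replicates 1 and 3 of Uba3 cKO lay below every control. The means were 9.46 ± 0.13 and 9.55 ± 0.074 in Uba3 cKO and control libraries, a log2 difference of -0.098 (standard error 0.072). Without Uba3 cKO replicate 1 it was -0.050 (standard error 0.067), and without that library and control replicate 3 it was -0.043 (standard error 0.063). The spread within groups was 0.10 log2 units for Dip2b, smaller than that of most genes of like level, since only 31.0% of the 2890 genes within 0.5 log2 units of its mean had a smaller one. It was 0.19 for Dip2c, above 79.3% of 2910 such genes, and 0.26 for Dip2a, above 93.2% of 2813.

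**Figure D1:**
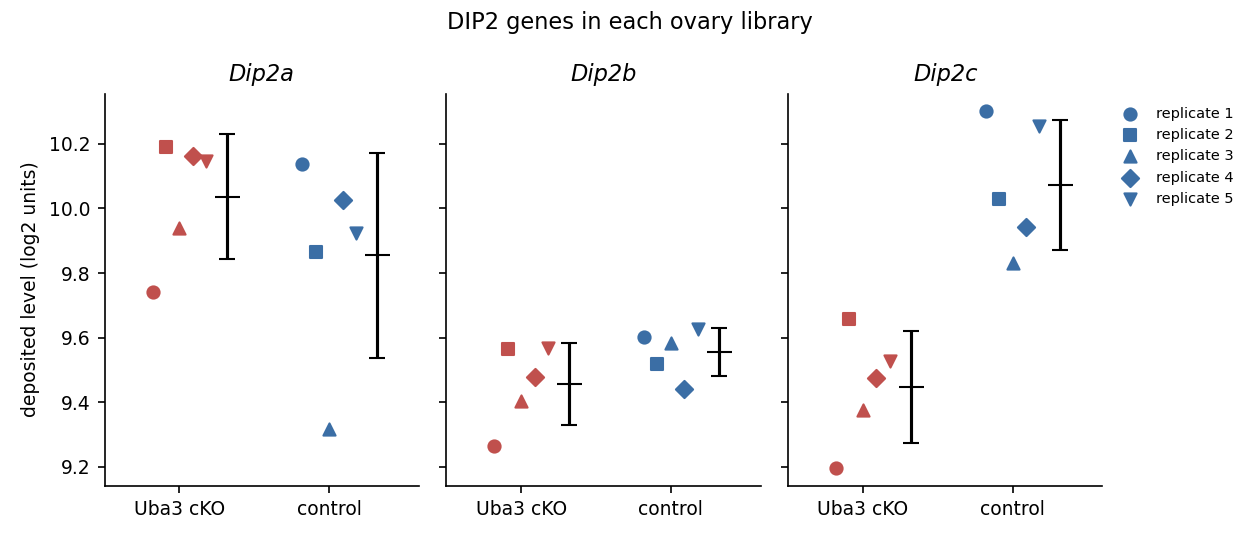
Deposited level of Dip2a, Dip2b and Dip2c (vertical axis, log2 units) in each library, with Uba3 cKO libraries left of control libraries; symbols mark the replicate number and bars the mean and SD of 5 libraries. The Dip2c values of the Uba3 cKO libraries lie between 9.20 and 9.66 and those of the control libraries between 9.83 and 10.30, while the groups overlap for Dip2a and Dip2b.

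Setting one member against another within a library removes what a library does to all 3 genes alike. Dip2c minus the mean of Dip2a and Dip2b was -0.30, -0.22, -0.29, -0.35 and -0.33 in Uba3 cKO replicates 1 to 5, against 0.43, 0.34, 0.38, 0.21 and 0.48 in control replicates 1 to 5. Dip2c was thus below the mean of its relatives in all 5 Uba3 cKO libraries and above it in all 5 control libraries. These values are not corrected for transcript length. The means were -0.30 ± 0.049 and 0.37 ± 0.10 in Uba3 cKO and control libraries (SD, n = 5 each), a difference of -0.67. The lowest control value lay 0.43 above the highest Uba3 cKO value, a gap wider than the 0.17 of Dip2c alone. Without Uba3 cKO replicate 1 and control replicate 3 the difference was -0.66. This is still the contrast on which the family was selected, so it too is a description.

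The relatives were also taken singly. Dip2c minus Dip2a averaged -0.59 ± 0.064 in Uba3 cKO libraries and 0.22 ± 0.22 in control libraries. Dip2c minus Dip2b averaged -0.0094 ± 0.062 in Uba3 cKO libraries and 0.52 ± 0.17 in control libraries. Neither ratio overlapped between the groups, but both hold Dip2c, on which the family was selected, so nothing is read from this. The share of other gene pairs without overlap was not computed. Dip2b minus Dip2a averaged -0.58 ± 0.080 in Uba3 cKO libraries and -0.30 ± 0.34 in control libraries and did overlap. All 3 ratios had the smaller SD in Uba3 cKO libraries, and control replicate 3 was the highest of the controls for Dip2c minus Dip2a and Dip2b minus Dip2a and the lowest for Dip2c minus Dip2b.

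**Figure D2:**
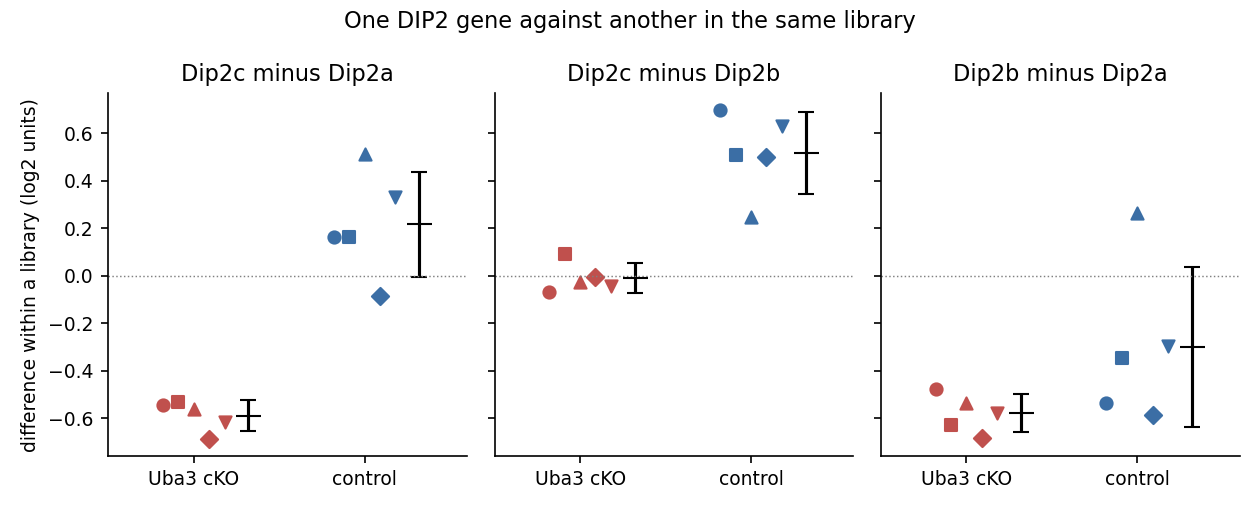
Difference between the deposited log2 levels of one DIP2 gene and another in the same library (vertical axis, log2 units), with Uba3 cKO libraries left of control libraries. Symbols mark the replicate number and bars the mean and SD of 5 libraries. The dotted line marks equal deposited values, which are not corrected for transcript length. Dip2c minus Dip2a lies between -0.69 and -0.53 in Uba3 cKO libraries and between -0.085 and 0.51 in control libraries.

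Levels of different genes can be compared only per length, here the deposited log2 level minus log2 of the exon union in kilobases (8.21 kb for Dip2a, 10.3 kb for Dip2b and 8.23 kb for Dip2c). In Uba3 cKO libraries the order was Dip2a at 6.998 ± 0.193, Dip2c at 6.40 ± 0.17 and Dip2b at 6.10 ± 0.13 log2 units per kb (SD, n = 5). In control libraries it was Dip2c at 7.03 ± 0.20, Dip2a at 6.82 ± 0.32 and Dip2b at 6.20 ± 0.074. Dip2b was the lowest per length in all 10 libraries. Dip2a lay above Dip2c in 5 of 5 Uba3 cKO libraries and in 1 of 5 control libraries, where the mean gap of -0.21 (SD 0.22) was no larger than its spread. With the longest coding transcript as the length, Dip2a lay above Dip2c in 3 of 5 control libraries, so the order of these neighbours in controls rests on which length is taken.

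On the linear scale per length, Dip2c made up 30.2% ± 0.743 of the summed family in Uba3 cKO libraries and 41.1% ± 1.97 in control libraries (SD, n = 5 each). The share of Dip2a was 45.5% ± 1.12 in Uba3 cKO libraries and 35.6% ± 4.05 in control libraries. The share of Dip2b was 24.4% ± 0.848 in Uba3 cKO libraries and 23.2% ± 3.04 in control libraries, and its control values ran from 20.7% to the 28.4% of replicate 3. Shares of a sum move against each other by construction, so the higher share of Dip2a goes with the lower share of Dip2c.

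**Figure D3:**
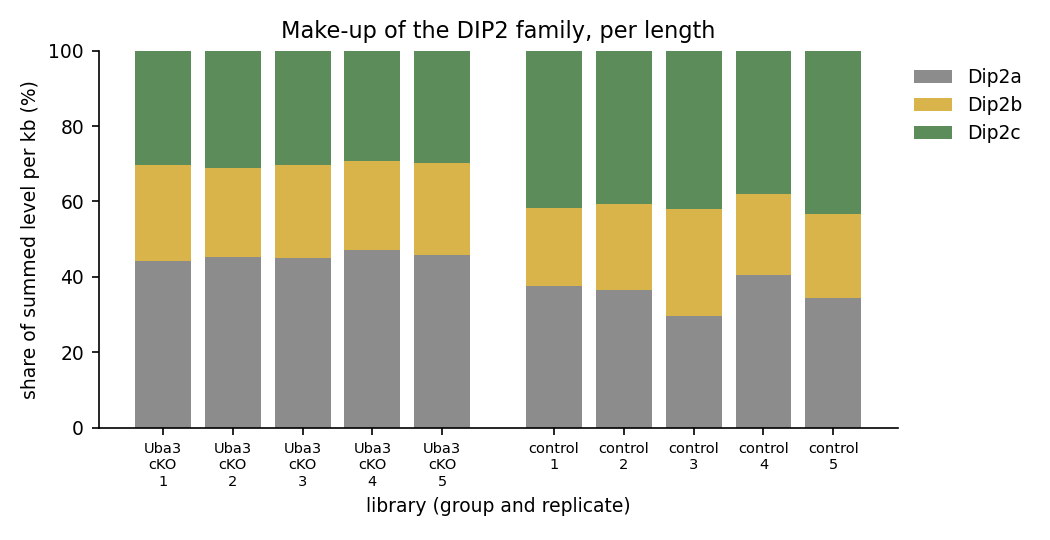
Share of Dip2a, Dip2b and Dip2c in their summed linear level per kilobase of exon union (vertical axis, percent), 1 bar per library, with Uba3 cKO libraries left of control libraries. The Dip2c share lies between 29.2% and 31.2% in Uba3 cKO libraries and between 38.0% and 43.2% in control libraries.

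How the members varied together among libraries of the same group was tested on deviations from the group means. The size of the spread of Dip2c entered the p on which the family was selected, but its relation to other measures did not. Pearson's r between Dip2c and Dip2a was 0.785 (exact permutation test within groups, two-sided, p = 0.00576, adjusted p = 0.0173 over 3 pairs; Spearman's rho 0.685, p = 0.0516, adjusted p = 0.0774). Between Dip2c and Dip2b it was 0.752 (exact permutation p = 0.0142, adjusted p = 0.0213; rho 0.77, p = 0.0153, adjusted p = 0.046). Between Dip2b and Dip2a it was 0.355 (exact permutation p = 0.27, adjusted p = 0.27; rho 0.309, p = 0.364, adjusted p = 0.364). Libraries with more Dip2c than their group mean thus had more Dip2a and Dip2b too, although the mean of Dip2c lay on the other side in the group comparison from that of Dip2a. By r with Dip2c, Dip2a came at place 397 and Dip2b at place 604 among 9181 genes with a mean of at least 8. Dip2c came at place 89 by r with Dip2b and at place 1354 by r with Dip2a. Many genes outside the family thus had a higher r with a member. Without the 2 libraries farthest out on the second gene named, r was 0.535 for Dip2c and Dip2a (exact permutation p = 0.212), 0.585 for Dip2c and Dip2b (exact permutation p = 0.0955) and 0.441 for Dip2b and Dip2a (exact permutation p = 0.335), so neither relation was called with 8 libraries left. Without Uba3 cKO replicate 1, and likewise without control replicate 1, 0 of the 3 were called, and without Uba3 cKO replicate 2 or 3 only 1 was. Without control replicate 3 all 3 were called, with r of 0.752 for Dip2b and Dip2a (exact permutation, adjusted p = 0.0451).

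With all 10 libraries, Dip2a and Dip2c followed the length slope of the libraries, and Dip2b did not pass the test. Over the 10 libraries and with group means removed, r with the slope was 0.935 for Dip2a (exact permutation p = 0.00431, adjusted p = 0.0215 over 15 relations; rho 0.709, adjusted p = 0.174), 0.798 for Dip2c (exact permutation p = 0.00187, adjusted p = 0.0141; rho 0.745, adjusted p = 0.172) and 0.35 for Dip2b (exact permutation p = 0.258, adjusted p = 0.554; rho 0.37, adjusted p = 0.564). Without the 2 libraries farthest out on the slope, r was 0.503 for Dip2a (exact permutation p = 0.22), 0.691 for Dip2c (exact permutation p = 0.0903) and 0.67 for Dip2b (exact permutation p = 0.116), so none of the 3 was called with 8 libraries left. The relation of Dip2a rests on the pair left out, while r for Dip2c moved less, and was 0.818 without control replicate 3 alone and 0.752 without Uba3 cKO replicate 1 alone. For Dip2b r was 0.86 without control replicate 3 alone, beside 0.798 for Dip2a, and 0.084 without Uba3 cKO replicate 1 alone. The lower r of Dip2b with all libraries thus rests on control replicate 3. Control replicate 3, with the lowest slope, had the lowest Dip2a of all libraries and the lowest Dip2c of the controls, but a Dip2b of 9.58, above the control mean. With the slope as a covariate the group differences were -0.66 (standard error 0.071) for Dip2c, 0.12 (standard error 0.062) for Dip2a and -0.11 (standard error 0.065) for Dip2b.

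**Figure D4:**
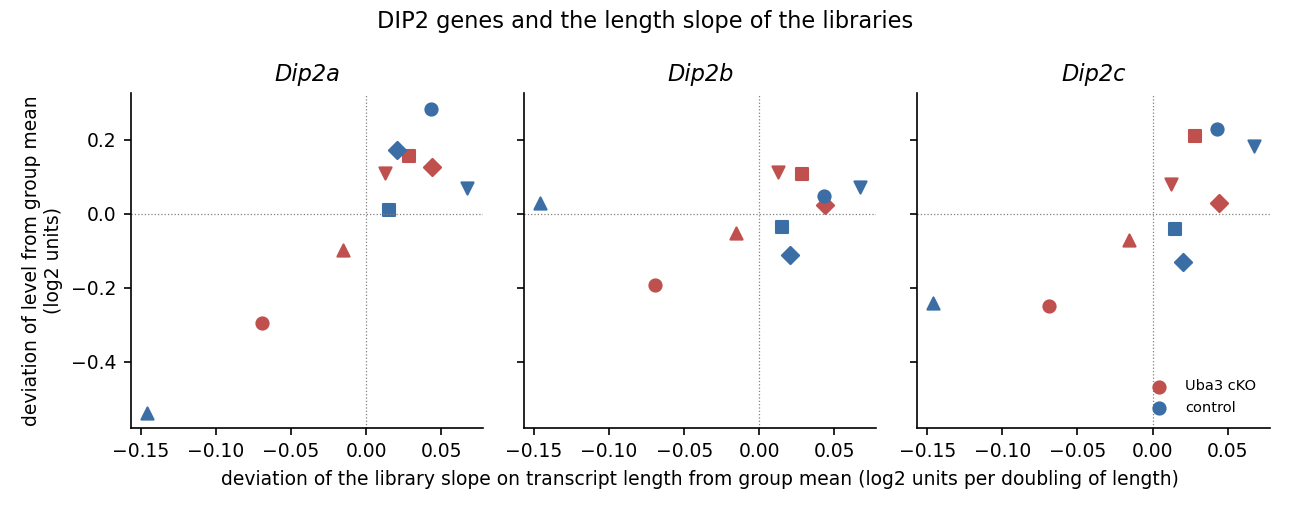
Deviation of each DIP2 gene from its group mean (vertical axis, log2 units) against the deviation of the library's slope on transcript length from its group mean (horizontal axis, log2 units per doubling of length), 1 point per library, coloured by group and with symbols for the replicate number as in the plot of levels. Control replicate 3 lies far to the left in every panel and is lowest for Dip2a, near the mean for Dip2b and low for Dip2c.

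Dip2a also followed the granulosa markers. With group means removed its r with the mean of 14 granulosa markers was 0.801 (exact permutation p = 0.000833, adjusted p = 0.0125 over 15 relations; rho 0.855, adjusted p = 0.0719) and 0.84 without the 2 libraries farthest out on the markers (exact permutation p = 0.00694). Leaving out Uba3 cKO replicate 1, or control replicate 3, or for each relation its 2 farthest libraries, left 0 of all 15 relations called after adjustment. For Dip2c r was 0.606 (exact permutation p = 0.0742, adjusted p = 0.278; rho 0.539, adjusted p = 0.345) and for Dip2b 0.505 (exact permutation p = 0.215, adjusted p = 0.538; rho 0.236, adjusted p = 0.651). The markers' mean ran from 12.59 to 12.91 in Uba3 cKO libraries and from 12.64 to 12.83 in control libraries. The lowest of each group, Uba3 cKO replicate 1 and control replicate 3, were also the libraries with the lowest length slope. Control replicate 5, with the highest slope (0.058), had a markers' mean of 12.68. Whether Dip2a follows the markers apart from the length slope was not tested. With oocyte, stromal and endothelial markers 0 of the 9 relations were called (lowest adjusted p = 0.433), with r from -0.517 for Dip2a and oocyte markers to 0.277 for Dip2a and stromal markers. With the granulosa mean as a covariate, an alternative added after seeing the data, Dip2c differed by -0.68 (standard error 0.093) and Dip2a by 0.088 (standard error 0.096).

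Genes most like each member were sought among 9181 others with a symbol and a mean of at least 8, by Pearson's r of deviations from the group means over the 10 libraries. These values describe the libraries, whose length slope and cell make-up all genes share. Nearest to Dip2c were Ep400 (r = 0.961), the motor of the TIP60 chromatin complex, Prrc2c (0.95), Chd8 (0.946), a chromatin remodeller, Cltc (0.937), the heavy chain of clathrin, and Cabin1 (0.935). Their own group differences lay between -0.031 and 0.012, beside the -0.62 of Dip2c. Dip2c was selected on this contrast, so nothing is read from their smaller differences. Nearest to Dip2a were Cdc42bpb (0.988), a kinase that acts with Cdc42, Tmem64 (0.979), Eps15 (0.978), an endocytic adaptor, Pofut1 (0.978), which adds fucose to Notch, and Edem3 (0.977). Nearest to Dip2b were Zfp369 (0.95), Polr2a (0.928), the largest subunit of RNA polymerase II, Nbas (0.913), Gbf1 (0.902) and Mki67 (0.897), the marker of dividing cells. The median exon union was 9616 bases for the 100 genes most like Dip2c, 8484 for Dip2a and 8127 for Dip2b, against 4876 for all genes compared. Of these 100, Dip2b and Dip2c shared 11, Dip2a and Dip2c 4, and Dip2a and Dip2b 0. With group means kept, Dip2b and Dip2c shared 31, and Dip2a shared 0 with either. There r also holds the group difference on which the family was selected, so nothing is read from these overlaps.

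Group differences of the 3 nearest tested genes on each side of each member are given as a description. Dip2c was selected on this contrast, so nothing is read from smaller differences in its neighbours. Next to Dip2c on chromosome 13 lie Larp4b, an RNA-binding protein, at 10.48 ± 0.15 and 10.59 ± 0.061, and Zmynd11, a reader of histone marks, at 11.12 ± 0.063 and 11.10 ± 0.16, in Uba3 cKO and control libraries in that order. Their log2 differences were -0.11 (standard error 0.072) and 0.015 (standard error 0.076). The other 4 of the 6 nearest tested genes differed by between -0.095 and 0.13. Next to Dip2a on chromosome 10 lie S100b (difference 0.13, standard error 0.081) and Pcnt, a centrosome scaffold (0.11, standard error 0.072). Next to Dip2b on chromosome 15 lie the antisense gene 2310068J16Rik (0.0040, standard error 0.074) and Atf1, a transcription factor that answers cyclic AMP (0.0023, standard error 0.061). Of these 18 neighbours, 0 had groups without overlap, against 0.320% of all tested genes, and 0 passed limma (smallest adjusted p = 0.9999). S100b overlaps Dip2a on the opposite strand, and whether counting used the strand is not given in the sources used here. S100b stood at 3.75 in Uba3 cKO and 3.63 in control libraries, far under Dip2a. Of the overlapping genes of Dip2b and Dip2c, none passed the filter on low values, and those in the table had means of at most 2.56.

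The promoters of the 3 members are rich in CpG. In RefSeq windows of 300 bases (GRCm38.p6) around the gene start, the ratio of observed to expected CpG was 1.1 for Dip2a, 1 for Dip2c and 0.967 for the outer start of Dip2b, against a median of 0.384 over 32851 windows. The inner start of Dip2b had 0.324. The letters GGGCGG, on either strand, were in the windows of Dip2a, Dip2c and the outer start of Dip2b, and in 35.7% of all windows. CGGCGGCGG, on either strand, was only in the outer window of Dip2b among the members, as part of a run of 6 CGG repeats that begins at base 5 of the gene, and in 3.59% of all windows. TATAAA was in none of the members' windows and in 13.6% of all.

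Genes linked to the DIP2 proteins by ligand, lipid or domain showed no call between the groups. Over 9 lists, 98 genes were tested, and 0 of them passed limma at an adjusted p of 0.05 in either direction (0% of all tested genes) or were at an unadjusted p under 0.05, against 1.79% of all tested genes. The median log2 difference of the 98 was -0.0044, beside 0.00034 for all tested genes.

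Among ligands, 4 of 5 genes were tested, with a median difference of -0.049. Fstl1, the reported ligand of DIP2A, stood at 10.62 ± 0.34 in Uba3 cKO and 10.51 ± 0.31 in control libraries, Fst, the activin-binding follistatin, at 13.16 ± 0.17 and 13.23 ± 0.085, and Fstl3 at 5.50 ± 0.10 and 5.59 ± 0.14. The basonuclins, zinc finger proteins related to fly Disco, were tested for 2 of 2 genes: Bnc1 stood at 8.83 ± 0.22 and 8.59 ± 0.17 (difference 0.23, standard error 0.11, adjusted p = 0.9999) and Bnc2 at 8.80 ± 0.16 and 8.77 ± 0.27. Cortactin, an actin-binding protein, and its partners had a median difference of -0.037 over 10 of 10 genes, with the Arp2/3 subunits Actr3 at 11.90 ± 0.056 and 11.90 ± 0.13, Arpc2 at 11.50 ± 0.021 and 11.53 ± 0.065 and Arpc3 at 10.03 ± 0.11 and 10.17 ± 0.19, and the dynamin Dnm2 at 10.31 ± 0.064 and 10.38 ± 0.14. Each pair gives the mean and SD of Uba3 cKO libraries and then of control libraries.

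Diacylglycerol, the lipid that DIP2 is known to handle in yeast and fly, has makers, users and sensors. Genes that turn it into storage fat and coat or empty lipid droplets had a median difference of -0.0017 over 12 tested of 19 genes, with the droplet coat Plin3 at 10.26 ± 0.047 in Uba3 cKO and 10.26 ± 0.11 in control libraries, Plin2 at 10.03 ± 0.14 and 10.09 ± 0.18 and Plin1 at 5.75 ± 0.39 and 5.56 ± 0.26, and the hormone-sensitive lipase Lipe at 8.03 ± 0.12 and 7.92 ± 0.12. Diacylglycerol kinases, which use it up, had a median of -0.0080 over 8 tested of 10, with Dgkd at 11.06 ± 0.043 and 10.93 ± 0.19 and Dgkz at 10.75 ± 0.071 and 10.81 ± 0.13. The list of phosphatidate synthesis and lipins had a median of 0.0070 over 17 of 17. It holds acyltransferases, lipins and Plpp phosphatases, and also Cds1 and Cds2, which use phosphatidate without making diacylglycerol. Gpam, which starts glycerolipid synthesis, stood at 12.39 ± 0.13 and 12.28 ± 0.31, and Agpat3 at 11.21 ± 0.024 and 11.22 ± 0.077. Agpat4 stood at 7.48 ± 0.13 and 7.60 ± 0.13 and the lipin Lpin3 at 7.47 ± 0.13 and 7.64 ± 0.16. The kinases that sense diacylglycerol had a median of 0.023 over 9 tested of 10. Prkcd stood at 12.62 ± 0.070 and 12.50 ± 0.21, Prkd3 at 10.92 ± 0.097 and 10.90 ± 0.20 and Prkcb at 5.80 ± 0.22 and 5.66 ± 0.18.

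The enzymes and complexes whose domains DIP2 resembles were also tested. The AMP-binding acyl-CoA synthetases had a median difference of 0.0032 over 17 tested of 24 genes. Acsbg1 stood at 11.94 ± 0.31 in Uba3 cKO and 12.12 ± 0.30 in control libraries, the fatty acid transporter Slc27a1 at 10.91 ± 0.15 and 10.80 ± 0.084, and Acss2, which makes acetyl-CoA from acetate, at 7.38 ± 0.066 and 7.53 ± 0.088. DMAP1, DNMT1 and the TIP60 complex had a median of -0.022 over 19 of 19 genes, with the maintenance methyltransferase Dnmt1 at 12.66 ± 0.22 and 12.63 ± 0.18, the scaffold Trrap at 12.58 ± 0.14 and 12.62 ± 0.20, Yeats4 at 9.82 ± 0.099 and 9.94 ± 0.13 and Meaf6 at 8.96 ± 0.069 and 9.06 ± 0.11. All values are RNA levels of whole ovaries, and neither lipids nor proteins were measured.

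The group differences were recomputed under 24 other settings. Dip2c ran from -0.69 without control replicate 3 to -0.56 without Uba3 cKO replicate 1, and the difference of Dip2c relative to the mean of Dip2a and Dip2b, under 23 of them, from -0.71 to -0.64. Dip2b ran from -0.13 to -0.043 and Dip2a from 0.047 to 0.26. The sign of each of the 3 members was the same under all 24. The other filters, the eBayes options and the replicate block change only the standard error, so their same sign was fixed in advance.

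**Figure D5:**
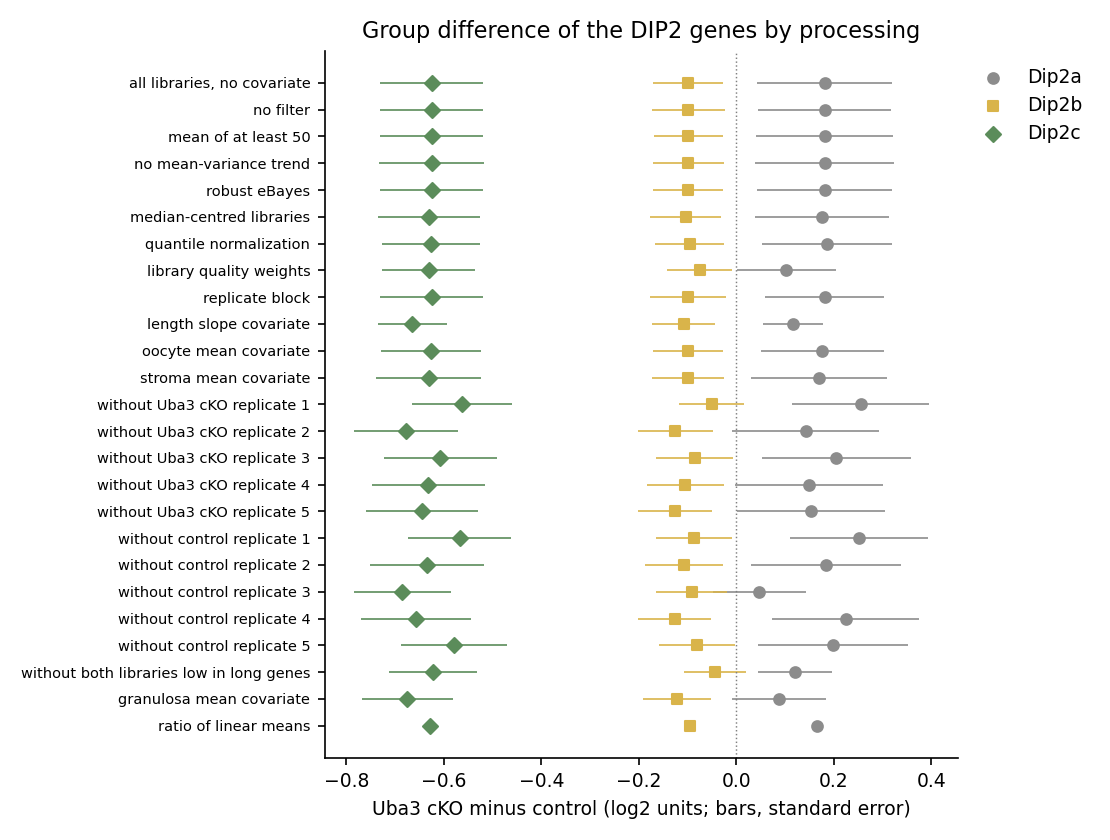
Difference of each DIP2 gene between the groups (horizontal axis, Uba3 cKO minus control in log2 units, bars showing the limma standard error where the setting gives one) under the settings named down the page. Dip2c stays between -0.69 and -0.56, Dip2b between -0.13 and -0.043 and Dip2a between 0.047 and 0.26.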

How the data were processed

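RNA of whole ovaries was isolated with a PicoPure kit, prepared with a TruSeq kit and read on a NovaSeq, per the labels' protocols. The submitters' processing notes name fastp, STAR, featureCounts, DESeq2 and GRCm39 without versions or roles. The authors deposited log2 values between -0.21 and 20.19. Their transform is not stated, and the spread is smaller at low levels (median SD 0.085 for means of 2 to 4, 0.132 for 8 to 10). Columns were matched to samples by the labels; no 2 columns were identical. Symbols, lengths and transcripts came from GENCODE M21, matching 22188 identifiers.

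Genes with a linear mean of at least 10 (3.32 in log2) were tested in R 4.3.3 using limma 3.58.1 (trend, no covariate, Benjamini-Hochberg, 0.05). The design had been written for these log2 values. The fit was checked on simulated data, with shifts added to genes with a mean of at least 8. Shifts of 0.25, 0.5 and 1 log2 unit were called in 8.6%, 71.4% and 97.5% of cases. Each simulation shifted many genes at once, some by 2 log2 units, which eases the Benjamini-Hochberg threshold. These shares therefore do not tell how often a gene shifted alone would be called. Calls of genes without a shift had a median of 2 per simulation and a maximum of 176. Relations were tested by all 14400 shuffles within groups (scipy 1.17.1, numpy 2.4.6) and adjusted over 3 or 15 relations. Coding sequences were aligned with mafft 7.526.

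The members and the 19 lists (222 entries, 217 matched, 2 through a synonym) were chosen with earlier results of these data known. Named genes are the members, Uba3, from each pathway list the 2 highest and the 2 with the smallest p, from each cell type list the highest, the 5 genes most like each member and its nearest neighbours; of the cell type genes only 2 are printed, and 1 gene the rule takes is not reported here. Alternatives were other filters, eBayes options, scalings, weights, the replicate block, covariates and leaving out libraries.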

Additional observations from a re-analysis of the deposited data

Results flagged for a closer look

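Values were taken in 32 groups of 5 (members, their ratios and shares, Uba3 and library properties). In 2 groups a library lay farther from the others than Dixon's 95% critical value of 0.71 allows. Chance gives about 1 in 20 groups, so 2 of 32 is near what chance gives. Many groups also hold the same values, and the 2 are given as a description. The slope on transcript length of control replicate 3 was -0.155, the lowest of the 5 controls, with the next at 0.0061 (gap over range 0.755). The share of Dip2b in the family was 28.4% in control replicate 3, the highest of the 5 controls, with the next at 22.9% (gap over range 0.714). In that library Dip2a was also the lowest of all 10. The part of the length slope in the Dip2b share was not tested.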

How the results depend on the processing

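Of 15629 genes, 0 were called at first; with the length slope as a covariate 1 was called, Dip2c, from the contrast on which the family was selected, and 0 under every other setting (133 to 604 genes at an unadjusted p under 0.05). The member differences kept their direction and moved by less than 1 within-group SD under all 24 settings. Filters, eBayes options and the replicate block could not move them. For Dip2a and Dip2b that SD (0.263 and 0.104) exceeds the size of the difference itself (0.181 and -0.098). The limit therefore says little for both, and Dip2a fell to 0.047 without control replicate 3. Same-numbered deviations correlated from -0.338 to 0.318. This cannot show whether the replicate numbers pair the libraries, since such deviations also hold library properties such as the length slope. With the replicate block 0 genes were called and Dip2c differed by -0.62 (standard error 0.11).

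Of the 3 relations among members 2 were called, 0 without the 2 farthest libraries and 1 with group means kept, and 0 to 3 leaving out 1 library. Of the 15 to library properties 3 were called, 0 without the 2 farthest, 2 with group means kept, where r of Dip2c with the length slope was 0.244, and 0 to 3 leaving out 1 library. Of the relations not called, 7 changed sign under at least 1 setting. With median-centred libraries r was -0.015 for Dip2a and endothelial and -0.030 for Dip2b and stromal markers, and with quantile normalization 0.108 for Dip2b and endothelial markers. With group means kept it was -0.022 for Dip2b and stromal and -0.113 for Dip2c and endothelial markers, and without the 2 farthest libraries 0.175 for Dip2b and oocyte and 0.269 for Dip2b and endothelial markers. Leaving out 1 library, r ran from -0.15 to 0.274 (Dip2a, endothelial), -0.407 to 0.085 (Dip2b, oocyte), -0.0402 to 0.701 (Dip2b, granulosa), -0.187 to 0.282 (Dip2b, stromal), -0.125 to 0.252 (Dip2b, endothelial), -0.0428 to 0.461 (Dip2c, stromal) and -0.157 to 0.1997 (Dip2c, endothelial). The cause was not tested.

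With the longest coding transcript as the length, levels per kb were 7.32 and 7.14 for Dip2a and 6.30 and 6.40 for Dip2b in Uba3 cKO and control libraries. Depth is unknown, so counting error is not given.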
